A study of Mus musculus with 6 samples.

Results

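The genes described here are 34 members of glycolysis and of the transcriptional response to low oxygen, taken by name from the deposited gene tables. All 34 were present once and marked OK in each of the 6 tables, out of 23699 rows a table, and 33 of them passed the filter on low values and were tested among 10138 genes. Only Eno1 did not pass it. A first LPS stimulus lowered 14 of the 33, a smaller share than the 54.4% of all genes that fell, among them the phosphofructokinase gene Pfkl, the mitophagy receptor gene Bnip3l and the oxygen sensor gene Egln1. It raised 4, where 8.75% of all genes rose: Adm, which encodes a vasodilator peptide, the phosphofructokinase gene Pfkp, the hexokinase gene Hk2 and the lactate carrier gene Slc16a1. When tolerized cells met the same LPS dose, the lactate exporter gene Slc16a3 and the hypoxia genes Bnip3, Ankrd37 and Egln3 stood above their level after LPS alone by 2.86 to 3.15 on the log2 scale. In the same comparison the lactate dehydrogenase gene Ldhb fell, and Ldha rose by a call that did not pass after rescaling. In the KO tolerized against the WT tolerized library 9 of 30 measured members were at least 2-fold higher, against 1.81% of all genes. Among them were the hypoxia genes Ankrd37, Bnip3, Vegfa, Egln3 and Ndrg1, while Adm, also a hypoxia gene, was at least 2-fold lower. This compares single libraries.

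Glycolysis breaks glucose down to pyruvate in the cytosol, and lactate dehydrogenase turns pyruvate into lactate, which monocarboxylate transporters carry out of the cell. Under low oxygen the factor HIF escapes hydroxylation by the Egln oxygen sensors and degradation, and it switches on glycolytic enzymes, glucose and lactate transporters, mitophagy receptors and its own Egln sensors. Activated macrophages are known for raised glycolysis, and HIF can also be stabilised in them with oxygen present.

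The libraries were made from poly-A selected RNA of peritoneal macrophages of C57Bl/6 mice, 1 for each of 6 groups. The KO mice carried the miR-221/222 deletion (miR-221/222 -/Y, so hemizygous, since both microRNA genes lie on the X chromosome), and the WT mice were wildtype. The cells stayed without LPS (naive), received 1000 ng/ml LPS, a bacterial cell wall component, for 4 h (LPS), or were tolerized, which meant a first dose of 10 ng/ml for 15 h, a wash and 2 h of rest before 1000 ng/ml for 4 h. The label on the deletion names no cell type or promoter, and how long naive and LPS cells were cultured is not stated. Time in culture and earlier LPS therefore cannot be told apart. The series describes triplicates, but each group has 1 table, and whether it pools animals or cultures is not given in the sources used here.

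Values are FPKM, which relate fragments to transcript length and to the mapped total, so levels of different genes can be compared. The deposited interval around a value had a median half-width of 5.05% to 5.99% for genes at 10 FPKM or more and covers counting error only. The labelled treatment left its mark: Il6 had 7.32, 5013 and 1624 FPKM in KO cells (naive, LPS and tolerized) and 1.25, 4138 and 2317 FPKM in WT cells in the same order, and Tnf had 219.9, 17407 and 1352 FPKM in KO cells (naive, LPS and tolerized) and 28.7, 13818 and 1235 FPKM in WT cells in the same order. The targeted genes Mir221 and Mir222 were listed at 0 FPKM in all 6 libraries, a row that says nothing of the mature forms in poly-A selected RNA, which leaves the genotype unchecked. Of 13 pan-macrophage markers 12 were found, all at 2 FPKM or more in every library. Summed large peritoneal macrophage markers (10 of 10 found) stood at 765 to 1357 FPKM in naive, 470.1 to 769 FPKM in LPS and 245 to 288 FPKM in tolerized cells. Markers of other cells were present too, and their levels are given beside the comparisons.

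Differences between conditions were fitted with limma over all 6 libraries on log2(FPKM + 1) with genotype as a covariate, and adjusted by Benjamini-Hochberg over 10138 genes with a threshold of 0.05. Each condition has 2 libraries, 1 of each genotype, and each genotype has 3, 1 of each condition, so no library is a replicate of another. The p-values measure only the spread between these samples. In this fit that spread is how far the KO and WT responses differ, so a genotype difference in response counts as spread. The median of all genes was not at 0: it lay at 0.51 for tolerized against LPS, -0.76 for LPS against naive, -0.22 for tolerized against naive and -0.06 for KO against WT. Each count is therefore also given after rescaling, in which every library was divided by its median ratio to the average library.

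The deletion removes the microRNAs whose mature forms are shown because they define the KO cells, with the seed (bases 2 to 8) in capitals.
mmu-miR-221-3p (GRCm38, chrX:19146307-19146329, minus strand): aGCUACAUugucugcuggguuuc
mmu-miR-222-3p (GRCm38, chrX:19146901-19146923, minus strand): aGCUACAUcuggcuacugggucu
Both share the seed GCUACAU, whose perfect match in a messenger RNA reads ATGTAGC.

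Only 1 of the 34 members, Pgk1, held that match in its longest annotated 3′ UTR (GENCODE, GRCm38), or 2.94%. It was held by 994 of 9006 tested genes with an annotated 3′ UTR, or 11.04%. The match, in capitals, with its flanks is shown.
Pgk1 site: ctctctgacgtATGTAGCctctggttag
Pgk1, the phosphoglycerate kinase of glycolysis, differed by 0.71 ± 0.24 between KO and WT (adjusted p = 0.58), which did not pass the threshold.

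Promoters are shown for the 4 members with the largest difference between tolerized and LPS cells (Bnip3, Ankrd37, Slc16a3 and Egln3) and for Ldhb and Adm, which fell in that comparison. Each window runs from 250 bases before to 50 bases after the RefSeq transcription start. Capitals mark the hypoxia response element cores ACGTG and GCGTG, read on both strands. CACGTG holds ACGTG on both strands, so overlapping matches merge in capitals.
Bnip3 (GRCm38, chr7:138909457-138909756, minus strand): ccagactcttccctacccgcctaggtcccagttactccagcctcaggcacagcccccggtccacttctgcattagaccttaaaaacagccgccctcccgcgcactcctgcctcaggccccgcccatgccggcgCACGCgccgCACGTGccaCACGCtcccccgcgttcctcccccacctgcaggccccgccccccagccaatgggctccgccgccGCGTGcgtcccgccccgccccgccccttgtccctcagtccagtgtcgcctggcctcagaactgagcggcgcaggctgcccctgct
Ankrd37 (GRCm38, chr8:45999801-46000100, minus strand): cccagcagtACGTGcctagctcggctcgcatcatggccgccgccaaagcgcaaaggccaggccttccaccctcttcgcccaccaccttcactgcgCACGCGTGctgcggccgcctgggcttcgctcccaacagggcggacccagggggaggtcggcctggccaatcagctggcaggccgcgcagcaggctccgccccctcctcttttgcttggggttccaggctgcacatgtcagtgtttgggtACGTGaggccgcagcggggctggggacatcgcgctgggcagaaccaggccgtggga
Slc16a3 (GRCm38, chr11:120948817-120949116, plus strand): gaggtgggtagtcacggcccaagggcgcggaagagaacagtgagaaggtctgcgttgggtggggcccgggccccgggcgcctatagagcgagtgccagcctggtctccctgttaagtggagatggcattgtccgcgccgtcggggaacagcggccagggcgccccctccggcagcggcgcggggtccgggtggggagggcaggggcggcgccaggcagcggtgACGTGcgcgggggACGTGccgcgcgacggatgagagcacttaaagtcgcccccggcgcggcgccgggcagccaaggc
Egln3 (GRCm38, chr12:54203825-54204124, minus strand): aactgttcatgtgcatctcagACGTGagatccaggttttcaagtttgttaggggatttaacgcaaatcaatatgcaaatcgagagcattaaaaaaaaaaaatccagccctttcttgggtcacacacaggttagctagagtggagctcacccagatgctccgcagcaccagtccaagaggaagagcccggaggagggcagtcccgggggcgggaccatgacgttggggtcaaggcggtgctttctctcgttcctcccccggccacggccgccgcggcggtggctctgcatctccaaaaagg
Ldhb (GRCm38, chr6:142507908-142508207, minus strand): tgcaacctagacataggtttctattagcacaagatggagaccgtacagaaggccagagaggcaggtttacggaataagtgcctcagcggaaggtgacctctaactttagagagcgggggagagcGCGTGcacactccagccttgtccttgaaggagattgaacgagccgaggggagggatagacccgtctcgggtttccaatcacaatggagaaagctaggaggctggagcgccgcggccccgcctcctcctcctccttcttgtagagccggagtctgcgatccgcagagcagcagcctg
Adm (GRCm38, chr7:110627407-110627706, plus strand): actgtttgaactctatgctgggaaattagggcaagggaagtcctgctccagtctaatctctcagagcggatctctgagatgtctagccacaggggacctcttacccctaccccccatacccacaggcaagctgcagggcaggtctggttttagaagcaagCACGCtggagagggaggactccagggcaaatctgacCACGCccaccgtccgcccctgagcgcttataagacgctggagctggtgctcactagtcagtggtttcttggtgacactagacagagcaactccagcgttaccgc
RefSeq promoters were found for 32 of the 34 members, all but Ndrg1 and Bnip3l. ACGTG occurred for 24 of the 32 members (75%) and for 30.5% of 7388 tested genes with a promoter in the table, and GCGTG for 22 members (68.8%) and 57.1% of the tested genes. Of the 15 members with a promoter that rose in tolerized against LPS cells 11 held ACGTG, as did 13 of the other 17. Ldhb and Adm, shown above, held GCGTG and no ACGTG in this window. A match describes the letters and is not evidence of binding.

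**Figure D1:**
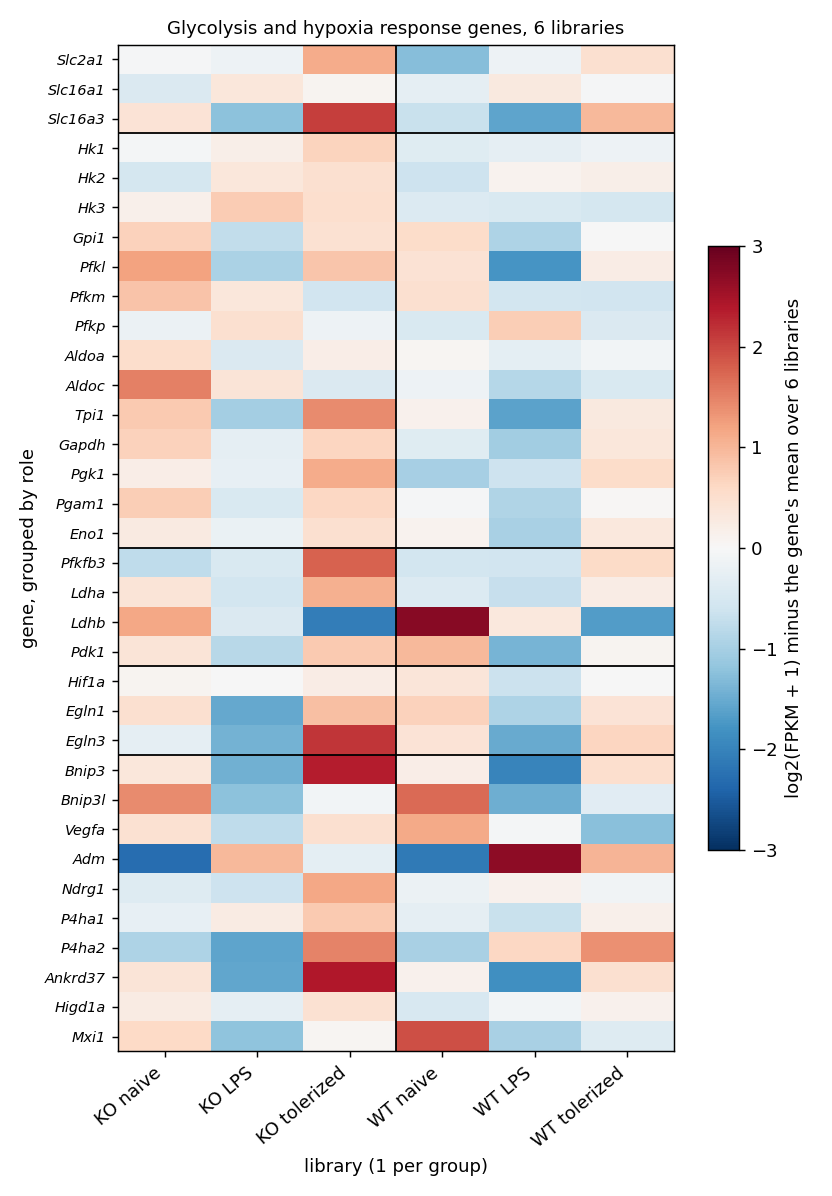
Level of each of the 34 genes (rows, grouped by role) in the 6 libraries (columns), as log2(FPKM + 1) minus the gene's mean over the libraries. Red is above and blue below the mean. The KO tolerized column is the highest of the 6 for 17 genes, and the WT LPS column the lowest for 16. Of all genes tested, 11.05% were highest in KO tolerized and 27.39% lowest in WT LPS. After rescaling KO tolerized was the highest for 18 of the 34, against 10.47% of all genes. WT LPS was then the lowest for 12, against 21.09% of all genes. WT naive was the lowest for 12 too, against 24.5% of all genes.

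Against LPS alone, limma called higher in tolerized cells the lactate exporter gene, 6 of 13 tested glycolytic enzyme genes, and the mitophagy and oxygen sensor genes of the set. After rescaling 2 of the 13 were called higher, and Bnip3l was not. Of 33 members tested 16 rose and 3 fell, where 36.8% of all genes rose and 4.32% fell. After rescaling 7 rose and 4 fell, where 8.9% and 9.3% of all genes did. The median difference of the members was 0.96, against 0.51 for all genes. The median of the 13 glycolytic enzyme genes was 0.43, and after rescaling -0.18, where that of all genes was -0.01. Both tolerized libraries lay above both LPS libraries for 20 of the 33, where they did for 63.8% of all genes. The counts leaned on single libraries. Leaving out WT LPS gave 8 higher and 1 lower, KO tolerized 9 and 2, and KO LPS 3 and 0, with 15 higher and 3 lower at an unadjusted p below 0.05 in that last limma fit. The rises of Slc16a3, Pfkl and Tpi1 passed with any 1 library left out. With no filter on low values limma called 0 of the rises and 0 of the falls, those 3 included, with 16 higher and 2 lower at an unadjusted p below 0.05.

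Markers of several other cell types stood higher in tolerized than in LPS cells, and markers of macrophages lower. Pan-macrophage markers summed to 12870 to 18950 FPKM in tolerized and 20253 to 25967 FPKM in LPS cells. Summed B cell markers (9 of 10 found, none at 0 throughout) stood at 516 to 642 FPKM in tolerized, 288 to 330.4 FPKM in LPS and 609 to 815 FPKM in naive cells. T and NK cell markers (9 of 10) stood at 32.0 to 37.8 FPKM in tolerized and 14.0 to 15.7 FPKM in LPS cells. Neutrophil markers (9 of 10, S100a9 and Ngp at 0) stood at 254 to 397 FPKM in tolerized and 141 to 179.9 FPKM in LPS cells. S100a8 made up most of these sums (191 to 341 and 105 to 143 FPKM). Csf3r and Camp were higher in tolerized cells too, Retnlg was lower, and Cxcr2, Mpo and Elane stayed below 2 FPKM. Mesothelial and fibroblast markers (10 of 10) stood at 18.0 to 30.5 FPKM in tolerized and 4.91 to 5.76 FPKM in LPS cells. Dcn made up most of the tolerized sums (10.3 to 28.1 FPKM), and Msln, Upk3b, Wt1, Krt8, Krt18 and Krt19 stayed below 2 FPKM. Mast cell and eosinophil markers (9 of 10) stood at 193 to 199.6 FPKM in tolerized and 106 to 157 FPKM in LPS cells. Their part in the results was not tested, and in bulk RNA fewer cells of a type and less RNA per cell cannot be told apart.

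Against naive cells, a first LPS stimulus lowered 14 of the 33 members and raised 4, where 54.4% of all genes fell and 8.75% rose. After rescaling 9 fell and 8 rose, where 24.2% and 22.6% of all genes did. The members' median was -0.77, against -0.76 for all genes. The 50 most abundant rows took 43.8% to 46.7% of all FPKM in the LPS and 35.2% to 38.8% in the naive libraries, and the part of this in the falls was not tested. Without WT LPS 2 members rose and 11 fell. Slc16a1 and Hk2 lost their calls without KO naive or without KO LPS, Slc16a1 and Pfkp without WT LPS, and Pfkp also without WT naive. Of the rises only that of Adm passed with any 1 library left out. With no filter on low values 2 rose and 5 fell. Pan-macrophage markers summed to 20253 to 25967 FPKM in LPS and 43405 to 54768 FPKM in naive cells, and T and NK cell markers to 14.0 to 15.7 FPKM in LPS and 36.1 to 44.3 FPKM in naive cells. B cell markers were lower with LPS too, and the part of these markers in the falls was not tested. Of the falls, those of Pfkm, Pgam1, Egln3 and Ankrd37 did not pass in every fit with 1 library left out. With no filter on low values the falls of Gpi1, Pfkl, Tpi1, Pgam1 and Bnip3l passed. Those of Pfkl, Tpi1 and Bnip3l passed in every fit.

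Compared with naive cells, tolerized cells had 7 of the 33 members raised and 4 lowered, where 7.42% of all genes rose and 19.7% fell. After rescaling 7 rose and 2 fell, where 9.48% and 11.4% of all genes did. The 7 were Slc2a1, Slc16a3, Hk2, Pgk1, Pfkfb3, Adm and P4ha2, the same genes on both scales. The 4 that fell were Pfkm, Ldhb, Bnip3l and Mxi1, and the falls of Ldhb and Bnip3l passed after rescaling. The members' median was 0.37 in this comparison, against -0.22 for all genes. With any 1 library left out, Slc16a3 and Adm kept their rise, and Ldhb and Bnip3l their fall. With no filter on low values limma called 0 higher and 0 lower, with 6 higher and 5 lower at an unadjusted p below 0.05. Pan-macrophage markers summed to 12870 to 18950 FPKM in tolerized and 43405 to 54768 FPKM in naive cells, and mesothelial and fibroblast markers to 18.0 to 30.5 FPKM in tolerized and 7.29 to 9.09 FPKM in naive cells. Neutrophil markers summed to 254 to 397 FPKM in tolerized and 190.3 to 231 FPKM in naive cells. S100a8 (191 to 341 FPKM in tolerized and 65.2 to 166 FPKM in naive cells) and Camp were higher in tolerized cells of both genotypes. Csf3r (48.1 to 53.5 FPKM in tolerized and 57.9 to 123 FPKM in naive cells) and Retnlg were lower in both genotypes. The part of these markers in this comparison was not tested.

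**Figure D2:**
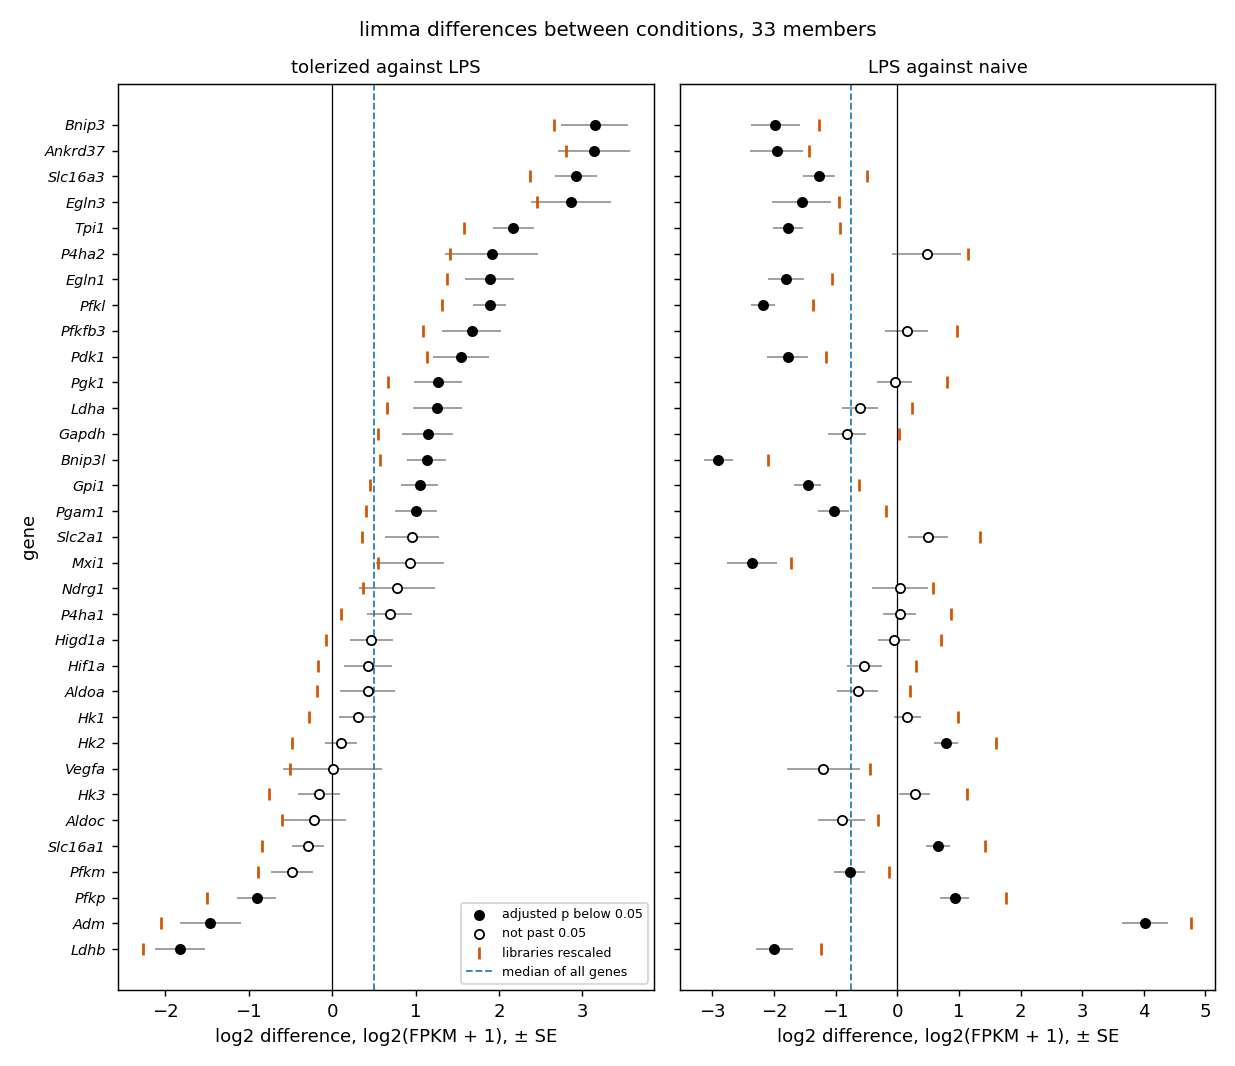
log2 differences (x axis) of the 33 tested members (rows, ordered by the left panel), tolerized against LPS on the left and LPS against naive on the right. Filled circles passed an adjusted p of 0.05, bars are SE, orange ticks are the values after rescaling and the dashed line is the median of all genes. Bnip3, Ankrd37, Slc16a3 and Egln3 lead the left panel and lie below 0 in the right one, and Adm stands alone at 4.02 in the right one.

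Among the transporters, Slc16a3 (chromosome 11, 120809798 to 120820314, mm9), which exports lactate, had 27.7, 8.18 and 89.2 FPKM in KO cells (naive, LPS and tolerized) and 12.5, 6.23 and 41.5 FPKM in WT cells in the same order. In both genotypes the LPS library was the lowest and the tolerized library the highest. It fell by 1.27 ± 0.26 with LPS (adjusted p = 0.006; -0.49 and 0.14 after rescaling) and rose by 2.92 ± 0.26 in tolerized against LPS cells (adjusted p = 0.0069). It also rose by 1.65 ± 0.26 in tolerized against naive cells (adjusted p = 0.0077). Slc2a1, the main glucose importer of macrophages, had 76.4, 70.3 and 171 FPKM in KO cells (naive, LPS and tolerized) and 31.8, 70.2 and 110.4 FPKM in WT cells in the same order. The tolerized library was the highest in each genotype, while the WT naive library alone was low. Tolerized cells rose over naive cells by 1.46 ± 0.33 (adjusted p = 0.022), a call lost without WT naive or without WT tolerized. Against LPS the difference was 0.96 ± 0.33 (adjusted p = 0.057). LPS and naive cells differed by 0.50 ± 0.33 (adjusted p = 0.22), and by 1.34 after rescaling, which passed (adjusted p = 0.015). Slc16a1, a lactate carrier of both directions, had 5.603, 10.3 and 8.50 FPKM in KO cells (naive, LPS and tolerized) and 6.45, 9.94 and 7.68 FPKM in WT cells in the same order, low levels with the LPS library highest in each genotype. It rose by 0.66 ± 0.19 with LPS (adjusted p = 0.024). After rescaling it was also lower in tolerized than in LPS cells, at -0.84 (adjusted p = 0.037).

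Hexokinases trap glucose in the cell by phosphorylating it. Hk2, the inducible form, had 14.7, 27.6 and 30.4 FPKM in KO cells (naive, LPS and tolerized) and 13.7, 23.3 and 24.5 FPKM in WT cells in the same order, with both naive libraries below the other 4. It rose by 0.79 ± 0.19 with LPS (adjusted p = 0.013) and by 0.90 ± 0.19 in tolerized against naive cells (adjusted p = 0.02), while tolerized and LPS cells differed by 0.10 ± 0.19 (adjusted p = 0.69). The Hk2 rise over naive lost its call when any of the 4 naive and tolerized libraries was left out. Hk1, the housekeeping form, had 28.8, 34.3 and 48.3 FPKM in KO cells (naive, LPS and tolerized) and 23.5, 24.9 and 27.3 FPKM in WT cells in the same order, and Hk3, a myeloid form, had 83.6, 128 and 108 FPKM in KO cells (naive, LPS and tolerized) and 56.4, 54.5 and 51.9 FPKM in WT cells in the same order. Hk3 was the most abundant of the hexokinases in all 6 libraries, and its KO libraries lay above all WT libraries. Neither Hk1 nor Hk3 passed the threshold in any contrast as deposited. After rescaling both were higher with LPS than in naive cells, at 0.99 and 1.13 (adjusted p = 0.012 and 0.014).

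Phosphoglucose isomerase and phosphofructokinase carry out the next steps, and phosphofructokinase is a main control point. Gpi1 had 99.0, 36.2 and 83.5 FPKM in KO cells (naive, LPS and tolerized) and 89.3, 31.3 and 59.9 FPKM in WT cells in the same order, and the LPS libraries lay below the other 4. It fell by 1.45 ± 0.22 with LPS (adjusted p = 0.002) and rose by 1.05 ± 0.22 in tolerized against LPS cells (adjusted p = 0.015), neither of which passed after rescaling (adjusted p = 0.0501 and 0.16). Pfkl (chromosome 10, 77449694 to 77472541, mm9), the liver-type phosphofructokinase, had 74.9, 16.0 and 57.8 FPKM in KO cells (naive, LPS and tolerized) and 43.3, 8.67 and 37.4 FPKM in WT cells in the same order. Its LPS libraries were the lowest and did not overlap the others. It fell by 2.18 ± 0.20 with LPS (adjusted p = 0.00056) and rose by 1.89 ± 0.20 in tolerized against LPS cells (adjusted p = 0.0069), and both calls passed after rescaling and with any 1 library left out.

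The platelet-type gene Pfkp moved the other way, with 29.9, 47.8 and 30.8 FPKM in KO cells (naive, LPS and tolerized) and 24.7, 58.0 and 24.9 FPKM in WT cells in the same order. Its LPS libraries were the highest 2 of the 6. It rose by 0.93 ± 0.23 with LPS (adjusted p = 0.014) and fell by 0.90 ± 0.23 in tolerized against LPS cells (adjusted p = 0.026), and tolerized and naive cells differed by 0.03 ± 0.23 (adjusted p = 0.95). The fall passed after rescaling but not without WT LPS, WT tolerized, KO LPS or KO tolerized. Pfkp was above Pfkl in both LPS libraries and below it in both naive and both tolerized libraries. Pfkm, the muscle type, was low at 5.06, 3.28 and 1.26 FPKM in KO cells (naive, LPS and tolerized) and 3.71, 1.30 and 1.25 FPKM in WT cells in the same order, and fell by 0.77 ± 0.25 with LPS (adjusted p = 0.036; 0.73 after rescaling) and by 1.25 ± 0.25 in tolerized against naive cells (adjusted p = 0.016; 0.052 after rescaling). Both calls were lost without WT naive, the first also without WT LPS or KO naive and the second without KO tolerized.

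Pfkfb3, which makes the sugar phosphate that activates phosphofructokinase, had 21.4, 26.9 and 128 FPKM in KO cells (naive, LPS and tolerized) and 24.8, 24.6 and 55.5 FPKM in WT cells in the same order. Naive and LPS libraries of both genotypes lay close together, and the tolerized libraries stood above them, the KO one highest. It rose by 1.67 ± 0.35 in tolerized against LPS cells (adjusted p = 0.015; 0.075 after rescaling) and by 1.83 ± 0.35 against naive cells (adjusted p = 0.014; 0.013 after rescaling). The rise over LPS cells lost its call without WT LPS, KO LPS or KO tolerized, and that over naive cells without KO naive.

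The enzymes of the later steps of the pathway were the most abundant members. Aldoa, an aldolase, ranged from 464.5 to 899.0 FPKM and Gapdh, the glyceraldehyde phosphate dehydrogenase, from 163.7 to 544.7 FPKM. Tpi1 (chromosome 6, 124760610 to 124764314, mm9), the triose phosphate isomerase, had 143, 40.7 and 225 FPKM in KO cells (naive, LPS and tolerized) and 91.4, 26.6 and 103 FPKM in WT cells in the same order. The LPS libraries were the lowest and the tolerized library the highest in each genotype. It fell by 1.77 ± 0.24 with LPS (adjusted p = 0.0015) and rose by 2.17 ± 0.24 in tolerized against LPS cells (adjusted p = 0.0069), also after rescaling and with any 1 library left out.

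Pgk1, which yields the first ATP of the pathway, had 159, 115 and 295 FPKM in KO cells (naive, LPS and tolerized) and 68.1, 88.2 and 202 FPKM in WT cells in the same order. Its tolerized libraries were the highest of the 6. It rose by 1.27 ± 0.29 in tolerized against LPS cells (adjusted p = 0.018; 0.12 after rescaling) and by 1.23 ± 0.29 against naive cells (adjusted p = 0.026; 0.016 after rescaling), the second call being lost without WT naive, WT tolerized or KO tolerized. Pgam1, a phosphoglycerate mutase, had 332, 145 and 304 FPKM in KO cells (naive, LPS and tolerized) and 191, 105 and 202 FPKM in WT cells in the same order, and Gapdh had 545, 279 and 529 FPKM in KO cells (naive, LPS and tolerized) and 262, 164 and 426 FPKM in WT cells in the same order. In each genotype the LPS library of both genes was the lowest. In tolerized against LPS cells Gapdh rose by 1.15 ± 0.31 and Pgam1 by 1.00 ± 0.25 (adjusted p = 0.029 and 0.024), and neither passed after rescaling (adjusted p = 0.22 and 0.24). With LPS alone Pgam1 fell by 1.03 ± 0.25 (adjusted p = 0.012; 0.55 after rescaling) and Gapdh differed by -0.82 ± 0.31 (adjusted p = 0.055). The calls of Gapdh, Pgk1, Pgam1 and Gpi1 in tolerized against LPS cells were lost without WT LPS, without KO LPS or without WT tolerized, and those of Gapdh, Pgam1 and Gpi1 also without KO tolerized. The fall of Pgam1 with LPS was lost without either LPS library.

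Aldoa had 899, 465 and 724 FPKM in KO cells (naive, LPS and tolerized) and 649, 513 and 596 FPKM in WT cells in the same order and passed the threshold in no contrast. Aldoc, the brain-type aldolase, was low at 7.89, 3.13 and 1.31 FPKM in KO cells (naive, LPS and tolerized) and 1.81, 0.732 and 1.28 FPKM in WT cells in the same order, highest in the KO naive library. Eno1, the enolase, had 1.37, 0.728 and 1.75 FPKM in KO cells (naive, LPS and tolerized) and 1.13, 4.2e-06 and 1.45 FPKM in WT cells in the same order. These Eno1 values are uncertain, because a row named Gm5506 at the same place (chromosome 4, 149611433 to 149622982, mm9) had 281, 101 and 222 FPKM in KO cells (naive, LPS and tolerized) and 162, 69.9 and 170.2 FPKM in WT cells in the same order, and that name was listed at 1 more locus. Copies exist for other members too. Gm12070, a Gapdh-like row, had 254, 132 and 252 FPKM in KO cells (naive, LPS and tolerized) and 125, 77.0 and 202 FPKM in WT cells in the same order. Glycolytic genes have many near-identical copies in the mouse genome, so reads of Gapdh, Aldoa and Eno1 may be split among rows and their values are uncertain. Gm5506 and Gm12070 were chosen after their values were seen.

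Lactate dehydrogenase is built from subunits of Ldha, which favours lactate formation, and Ldhb, which favours the reverse. Ldha (chromosome 7, 54101174 to 54110997, mm9) had 286, 149 and 457 FPKM in KO cells (naive, LPS and tolerized) and 165, 136 and 256 FPKM in WT cells in the same order. The tolerized library was the highest and the LPS library the lowest in each genotype. Ldhb (chromosome 6, 142438769 to 142456463, mm9) had 12.3, 3.43 and 0.408 FPKM in KO cells (naive, LPS and tolerized) and 38.5, 6.42 and 0.866 FPKM in WT cells in the same order. Its level was highest in naive and lowest in tolerized cells, and the 3 conditions did not overlap. Ldha rose by 1.26 ± 0.29 in tolerized against LPS cells (adjusted p = 0.02; 0.13 after rescaling), a call lost without WT LPS, KO LPS or KO tolerized. Ldhb fell by 2.00 ± 0.30 with LPS (adjusted p = 0.002), by 1.82 ± 0.30 in tolerized against LPS cells (adjusted p = 0.0094, a call lost without KO LPS) and by 3.82 ± 0.30 in tolerized against naive cells (adjusted p = 0.0022). All of these Ldhb calls passed after rescaling.

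Pdk1, a kinase that shuts pyruvate out of the mitochondrial citrate cycle, had 5.78, 1.94 and 7.96 FPKM in KO cells (naive, LPS and tolerized) and 9.13, 0.980 and 4.53 FPKM in WT cells in the same order. Its LPS libraries were the lowest 2. It fell by 1.78 ± 0.33 with LPS (adjusted p = 0.0046; 0.036 after rescaling) and rose by 1.55 ± 0.33 in tolerized against LPS cells (adjusted p = 0.016; 0.067 after rescaling), the rise being lost without WT LPS or without KO LPS. Tolerized and naive cells differed by -0.23 ± 0.33 (adjusted p = 0.64).

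**Figure D3:**
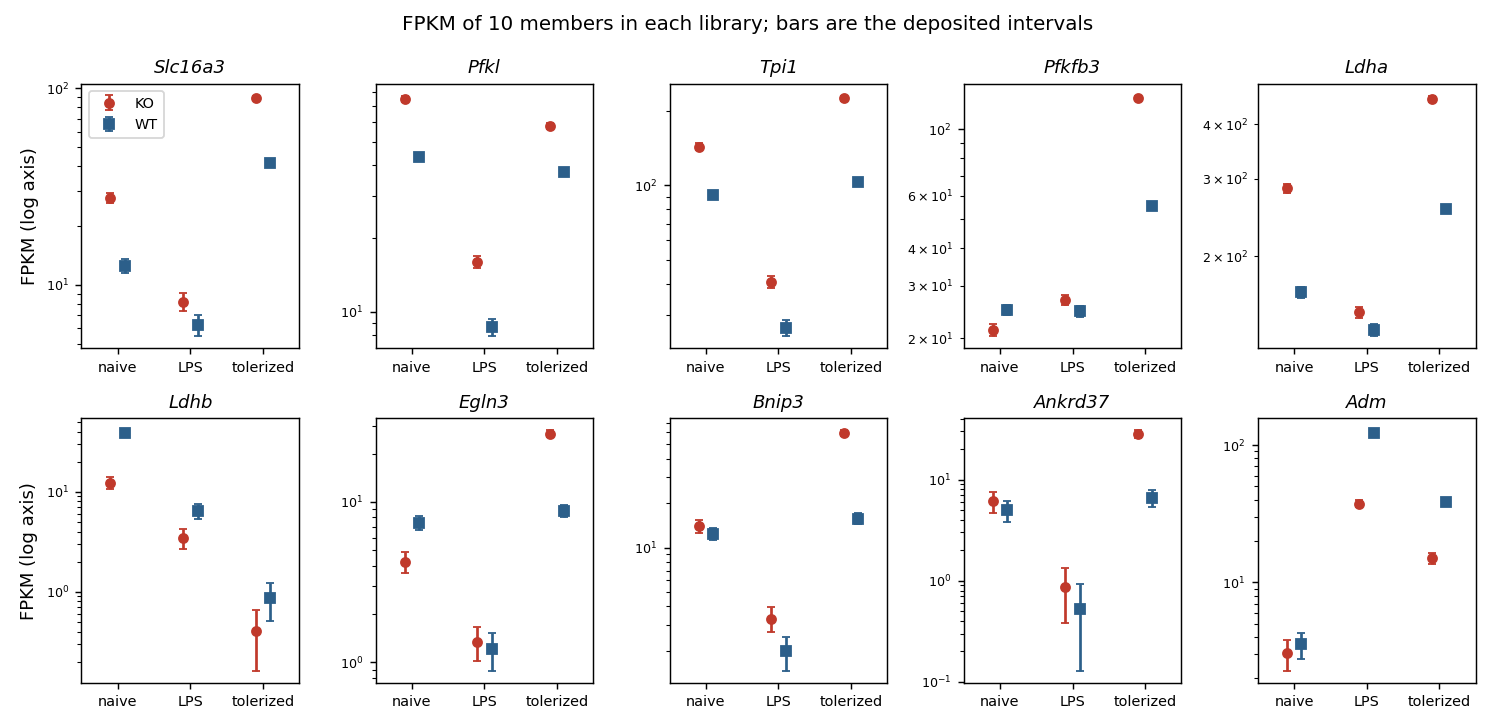
FPKM (log axis) of 10 members in naive, LPS and tolerized cells, KO as red circles and WT as blue squares, 1 library each, with the deposited intervals as bars. Slc16a3, Egln3, Bnip3 and Ankrd37 dip with LPS and are highest in tolerized cells, with KO above WT there, while Ldhb steps down and Adm peaks with LPS, 37.6 FPKM for KO against 124 FPKM for WT.

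Hif1a, the oxygen-regulated subunit of HIF, had 91.0, 86.0 and 101 FPKM in KO cells (naive, LPS and tolerized) and 111, 54.9 and 85.5 FPKM in WT cells in the same order. Its WT LPS library was the lowest and the rest lay between 85.5 and 110.5 FPKM. It passed the threshold in no contrast, and tolerized and LPS cells differed by 0.43 ± 0.28 (adjusted p = 0.26). HIF is set largely through its protein, which RNA does not measure. The oxygen sensors that mark it for degradation did differ. Egln1 (chromosome 8, 127432487 to 127473154, mm9) had 16.1, 3.22 and 22.1 FPKM in KO cells (naive, LPS and tolerized) and 18.7, 5.46 and 15.3 FPKM in WT cells in the same order, and its LPS libraries lay below the other 4. It fell by 1.81 ± 0.29 with LPS (adjusted p = 0.0027) and rose by 1.89 ± 0.29 in tolerized against LPS cells (adjusted p = 0.0085), both also after rescaling. The rise was lost without KO LPS. Egln3 (chromosome 12, 55279968 to 55304861, mm9), itself a HIF-induced gene with an ACGTG core in the promoter shown above, had 4.24, 1.33 and 26.7 FPKM in KO cells (naive, LPS and tolerized) and 7.42, 1.20 and 8.84 FPKM in WT cells in the same order. The KO tolerized library stood above all the others, and the WT tolerized library was close to WT naive. It fell by 1.55 ± 0.48 with LPS (adjusted p = 0.029; 0.15 after rescaling) and rose by 2.86 ± 0.48 in tolerized against LPS cells (adjusted p = 0.0096; 0.025 after rescaling). The rise was lost without KO LPS, and the fall without either LPS library or without WT naive.

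Bnip3 (chromosome 7, 146082519 to 146101189, mm9), which tags mitochondria for removal, had 13.9, 3.31 and 59.5 FPKM in KO cells (naive, LPS and tolerized) and 12.4, 1.99 and 15.7 FPKM in WT cells in the same order. In each genotype LPS was lowest and tolerized highest, by a wide margin in KO and by little over naive in WT. It fell by 1.98 ± 0.40 with LPS (adjusted p = 0.0063) and rose by 3.15 ± 0.40 in tolerized against LPS cells (adjusted p = 0.0077), both also after rescaling. Its relative Bnip3l (chromosome 14, 67604077 to 67627714, mm9) behaved differently, with 72.3, 10.8 and 25.0 FPKM in KO cells (naive, LPS and tolerized) and 88.7, 8.93 and 20.7 FPKM in WT cells in the same order. The naive libraries were the highest and the LPS libraries the lowest, without overlap. Bnip3l fell by 2.90 ± 0.23 with LPS (adjusted p = 0.00046) and by 1.77 ± 0.23 in tolerized against naive cells (adjusted p = 0.005), both also after rescaling and with any 1 library left out. Its rise of 1.13 ± 0.23 in tolerized against LPS cells (adjusted p = 0.014) did not pass after rescaling (0.13) or without WT LPS, KO LPS or KO tolerized.

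Ankrd37 (chromosome 8, 47082262 to 47085204, mm9), a HIF-induced ankyrin repeat gene, had 6.12, 0.859 and 28.1 FPKM in KO cells (naive, LPS and tolerized) and 5.01, 0.527 and 6.58 FPKM in WT cells in the same order. The pattern was that of Bnip3, with the KO tolerized library far above the rest. It fell by 1.96 ± 0.43 with LPS (adjusted p = 0.0083) and rose by 3.14 ± 0.43 in tolerized against LPS cells (adjusted p = 0.0079), both also after rescaling. Without KO LPS the rises of Bnip3 and Ankrd37 and the fall of Ankrd37 lost their calls. P4ha2, a subunit of the enzyme that hydroxylates proline in collagen, had 3.73, 2.03 and 24.5 FPKM in KO cells (naive, LPS and tolerized) and 3.57, 12.8 and 22.4 FPKM in WT cells in the same order. The WT LPS library stood well above WT naive, the KO LPS library did not stand above KO naive, and the tolerized libraries of both genotypes lay close together. It rose by 1.92 ± 0.56 in tolerized against LPS cells (adjusted p = 0.037; 0.13 after rescaling), a call lost without KO LPS or KO tolerized. Against naive cells it rose by 2.39 ± 0.56 (adjusted p = 0.025; 0.028 after rescaling), a call lost without WT naive. Its partner P4ha1 had 28.0, 39.7 and 58.7 FPKM in KO cells (naive, LPS and tolerized) and 27.7, 20.6 and 37.4 FPKM in WT cells in the same order and did not pass as deposited. After rescaling LPS cells exceeded naive cells by 0.86 (adjusted p = 0.044).

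Adm (chromosome 7, 117771183 to 117773333, mm9), which encodes adrenomedullin, had 3.03, 37.6 and 15.0 FPKM in KO cells (naive, LPS and tolerized) and 3.53, 124 and 38.6 FPKM in WT cells in the same order. It had the largest fitted rise of the 33 members to a first LPS stimulus, and it was highest in the LPS library of each genotype. It rose by 4.02 ± 0.37 with LPS (adjusted p = 0.00057) and by 2.56 ± 0.37 in tolerized against naive cells (adjusted p = 0.0066), and fell by 1.46 ± 0.37 in tolerized against LPS cells (adjusted p = 0.025). All 3 calls passed after rescaling. The fall was lost without WT LPS, KO LPS or KO tolerized. Mxi1, which binds MAX and opposes MYC, had 6.41, 1.13 and 4.16 FPKM in KO cells (naive, LPS and tolerized) and 17.8, 1.502 and 2.75 FPKM in WT cells in the same order. Its naive libraries were the highest of the 6. It fell by 2.35 ± 0.41 with LPS (adjusted p = 0.0034; 0.016 after rescaling) and by 1.42 ± 0.41 in tolerized against naive cells (adjusted p = 0.046; 0.089 after rescaling), the second call being lost without WT naive, WT LPS, WT tolerized or KO LPS.

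The angiogenic factor gene Vegfa had 10.9, 4.14 and 11.03 FPKM in KO cells (naive, LPS and tolerized) and 18.1, 7.39 and 2.61 FPKM in WT cells in the same order. Tolerized and LPS cells differed by 0.01 ± 0.59 (adjusted p = 0.995), with opposite directions in KO and WT. Without the KO tolerized library the difference was -1.21 (adjusted p = 0.03) and without the WT tolerized library 1.22 (adjusted p = 0.028). Ndrg1, a stress-responsive gene induced by low oxygen, had 1.51, 1.12 and 6.35 FPKM in KO cells (naive, LPS and tolerized) and 1.89, 2.62 and 2.06 FPKM in WT cells in the same order, and Higd1a, a protein of the inner mitochondrial membrane, had 10.2, 6.84 and 12.0 FPKM in KO cells (naive, LPS and tolerized) and 5.73, 7.99 and 9.44 FPKM in WT cells in the same order. Both were low throughout, with the KO tolerized library highest, and neither passed in any contrast.

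Most of these transcripts were higher in the KO than in the WT library of the same condition, and no gene passed the test. For KO against WT limma called 0 of 33 members and 0 of all genes (0% higher and 0% lower). At an unadjusted p below 0.05 it picked 13 members, 11 of them higher in KO, and 707 of 10138 genes, 439 of them higher in KO. The fitted difference was above 0 for 27 of the 33 members and for 4003 of 10138 genes. Leaving out either tolerized library called Aldoc at 1.46 and Ldhb at -1.16. All KO libraries lay above the WT libraries of the same condition for 18 of 34 members (52.9%), against 10.8% of all genes, with 18 and 13.7% after rescaling. Among the 14 glycolytic enzyme genes this was so for 12, all but Pfkp and Aldoa and with Eno1 and Pfkm near 1 FPKM in several libraries, and among the HIF factor and oxygen sensors for 0 of 3. Summed macrophage markers differed between the genotypes as well. Large peritoneal macrophage markers summed to 765, 470.1 and 245 FPKM in KO naive, LPS and tolerized libraries, below the 1357, 769 and 288 FPKM of the WT ones, and pan-macrophage markers to 43405, 20253 and 12870 FPKM in KO, below 54768, 25967 and 18950 FPKM in WT. Cd9 made up most of the first sums and Lyz2 most of the second. In every condition Gata6, F5, Cd9, Alox15 and Vsig4 were lower in KO. Timd4 of the same list was higher in KO (108, 140.3 and 29.1 FPKM, against 35.6, 62.1 and 14.7 FPKM in WT). Its other markers had no single direction. Of the pan-macrophage markers only Lyz2 and Tyrobp were lower in KO in every condition. The part of these markers in the genotype differences was not tested. The enzymes with the largest fitted differences were Aldoc (0.98 ± 0.31, adjusted p = 0.56), Hk3 (0.94 ± 0.21, adjusted p = 0.38) and Tpi1 (0.79 ± 0.20, adjusted p = 0.44). Ldhb (-0.91 ± 0.25, adjusted p = 0.48) and Adm (-1.05 ± 0.30, adjusted p = 0.51) had the largest in the other direction.

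The members farthest apart between KO and WT were not the same in each condition. In the naive pair 5 of 32 measured members were at least 2-fold higher in KO (Slc2a1, Slc16a3, Aldoc, Gapdh and Pgk1), against 3.95% of all genes, and 2 lower (Ldhb and Mxi1), against 3.12%. In the LPS pair 2 of 29 were higher (Hk3 and Aldoc), against 4.19%, and 2 lower (Adm and P4ha2), against 3.04%. In the tolerized pair 9 of 30 were higher, against 1.81%, and 1 lower, Adm, against 0.763%. After rescaling the counts were 5 higher in the naive pair (background 3.89%) and 2 lower (2.75%), 4 higher in the LPS pair (5.65%) and 2 lower (2.6%), and 9 higher in the tolerized pair (1.85%) and 1 lower (0.64%). The 9 were Slc16a3, Hk3, Tpi1, Pfkfb3, Egln3, Bnip3, Vegfa, Ndrg1 and Ankrd37. Of the 30 measured members 29 lay above WT in the tolerized pair, where 47.3% of all genes did, and the members' median difference was 0.60 against -0.02 for all genes. It was 0.20 against -0.04 in the naive and 0.24 against -0.13 in the LPS pair. These are single libraries with no replicate check, and whether the differences between conditions exceed the spread was not tested.

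For Ankrd37 and Bnip3 the gap between KO and WT was larger in the tolerized pair. Ankrd37 differed by 1.94 in the tolerized and 0.24 in the naive pair, and Bnip3 by 1.85 and 0.15 in those pairs. Their intervals did not overlap in the tolerized pair and did in the naive pair. Marker sums in that tolerized pair were 642.2 FPKM in KO and 515.8 FPKM in WT for B cells, 396.7 and 254.2 FPKM for neutrophils in KO and WT, and 30.5 and 18.0 FPKM for mesothelial cells and fibroblasts in KO and WT. S100a8 (341 and 191 FPKM in KO and WT) made up most of the neutrophil sums. Dcn (28.1 and 10.3 FPKM) made up most of the mesothelial and fibroblast sums. Csf3r (48.1 and 53.5 FPKM), Camp (6.95 and 8.85 FPKM) and Retnlg of the neutrophil list were lower in KO than in WT. So were the fibroblast markers Col1a1 (0.48 and 2.51 FPKM), Col1a2 (0.57 and 2.27 FPKM) and Col3a1 (0.18 and 2.65 FPKM). The part of these markers in the difference was not tested.

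**Figure D4:**
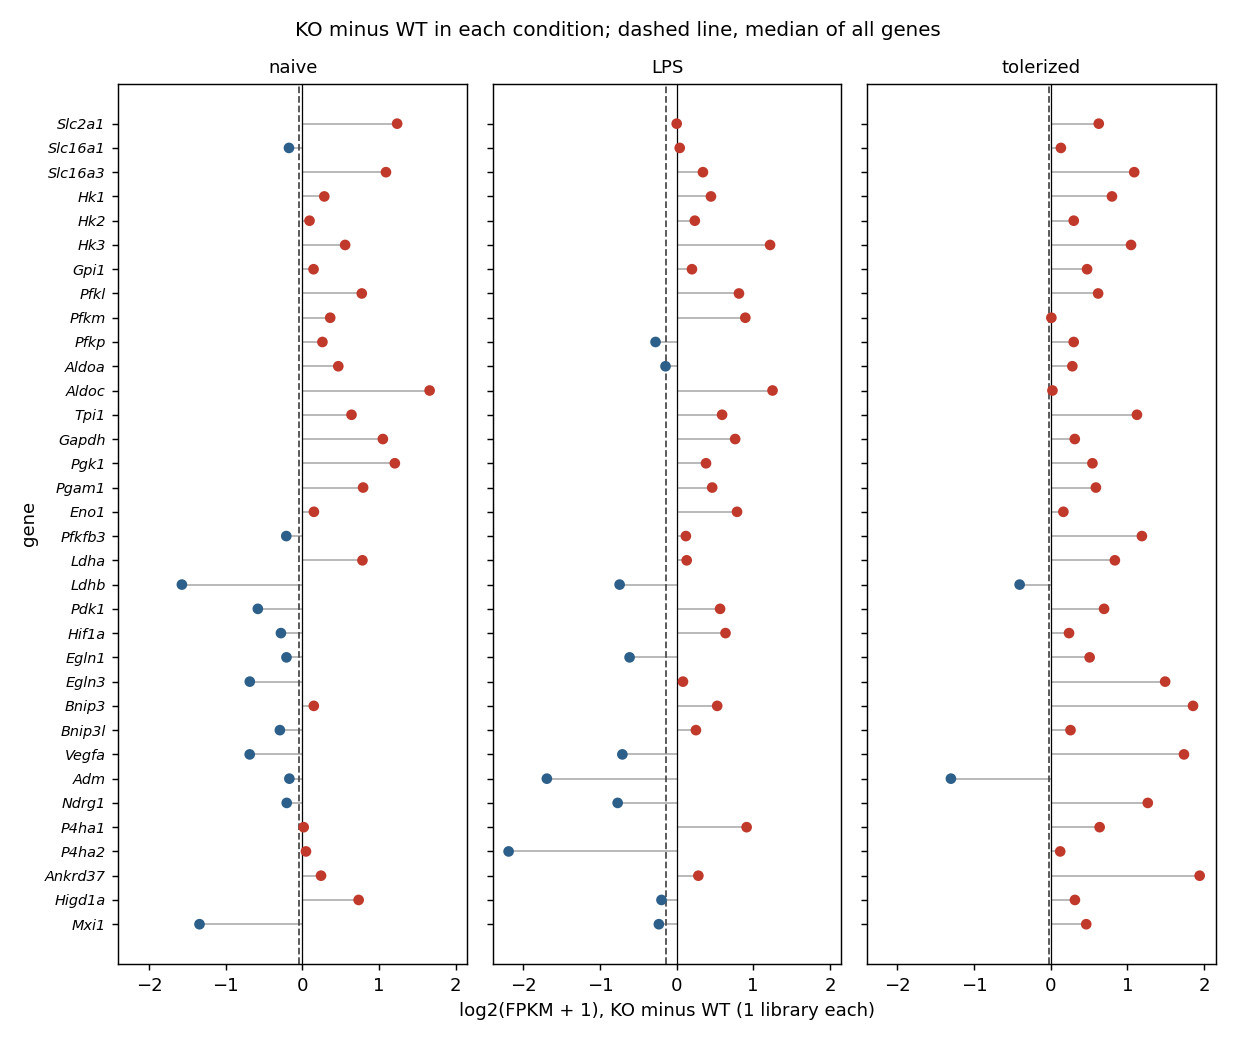
Difference of log2(FPKM + 1), KO minus WT (x axis), of each member (rows) in the naive, LPS and tolerized pair of libraries, red above and blue below 0, with the median of all genes as a dashed line. In the tolerized pair nearly all members lie to the right of 0, Ankrd37, Bnip3, Vegfa and Egln3 farthest, and Adm lies to the left at -1.30.

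Within each genotype the conditions were also compared as pairs of single libraries, by size and with no test. In KO 19 of 33 measured members were at least 2-fold higher in tolerized than LPS cells, against 24% of all genes, and 2 lower, against 4.3%. In WT 12 of 31 were higher, against 20.8%, and 4 lower, against 4.54%. With LPS against naive cells 1 of 32 was higher and 15 lower in KO, against 6.97% and 42% of all genes. In WT 4 of 32 were higher and 13 lower, against 8.16% and 39.8%. With tolerized against naive cells 10 of 33 were higher and 4 lower in KO, against 6.33% and 13.2%, and 6 of 32 higher and 5 lower in WT, against 7.96% and 16.8%. After rescaling tolerized against LPS gave 11 higher (background 7.59%) and 5 lower (10.7%) in KO, and 7 higher (7.41%) and 4 lower (10.5%) in WT. LPS against naive then gave 8 higher (15.7%) and 6 lower (15.3%) in KO, and 8 higher (17.6%) and 8 lower (18.9%) in WT. Tolerized against naive then gave 12 higher (8.37%) and 4 lower (8.43%) in KO, and 7 higher (10.4%) and 4 lower (11.7%) in WT. The tolerized libraries of KO and WT are each set against their own LPS and naive libraries here, so comparisons within a genotype share a library.

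Other genes of the same pathways were read from lists outside the 34. The counts stand against the shares of all genes: 36.8% rose and 4.32% fell in tolerized against LPS cells (8.9% and 9.3% after rescaling), 8.75% rose and 54.4% fell with LPS (22.6% and 24.2%), and 7.42% rose and 19.7% fell in tolerized against naive cells (9.48% and 11.4%). Several of the counts lie near these shares. Of 11 further glycolysis genes tested 6 rose and 1 fell in tolerized against LPS cells, or 4 and 1 after rescaling. Pgm2, a phosphoglucomutase (2.15 ± 0.19, adjusted p = 0.0069), and Pkm2, the row of the pyruvate kinase gene that ends glycolysis (1.59 ± 0.27, adjusted p = 0.0099), rose most, and the hexose transporter gene Slc2a6 (-1.83 ± 0.39, adjusted p = 0.016) fell. With LPS 8 of the 11 fell and 1 rose, or 6 and 2 after rescaling. Pfkfb2 and Pfkfb4, relatives of Pfkfb3, fell most (-2.50 ± 0.18, adjusted p = 0.00042 and -2.22 ± 0.21, adjusted p = 0.00062), and Slc2a6 rose (1.94 ± 0.39, adjusted p = 0.0059). Of 24 further hypoxia response genes 12 rose and 0 fell in tolerized against LPS cells, or 4 and 0 after rescaling, led by the arginase gene Arg1 (5.07 ± 0.27, adjusted p = 0.0046) and the glycogen synthase gene Gys1 (2.72 ± 0.30, adjusted p = 0.0069). With LPS 12 of the 24 fell and 3 rose, or 5 and 6 after rescaling. Those that fell most were Zfp395 (-3.17 ± 0.36, adjusted p = 0.00088) and Ppfia4 (-2.27 ± 0.21, adjusted p = 0.0006), and the nitric oxide synthase gene Nos2 rose most (5.89 ± 0.72, adjusted p = 0.0011).

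Of 9 HIF partners and oxygen sensing genes 5 rose and 1 fell in tolerized against LPS cells, or 0 and 1 after rescaling. Cited2, which competes with HIF for its coactivators, fell (-1.74 ± 0.24, adjusted p = 0.0079), and the coactivator gene Ep300 (1.20 ± 0.28, adjusted p = 0.02) and Vhl, whose product tags hydroxylated HIF for degradation (1.03 ± 0.22, adjusted p = 0.016), rose most. With LPS 7 of the 9 fell and 1 rose, or 1 and 1 after rescaling, among them Epas1, the HIF subunit related to Hif1a (-2.01 ± 0.34, adjusted p = 0.003), while Cited2 rose (1.23 ± 0.24, adjusted p = 0.0052). Of 12 genes of pyruvate entry into mitochondria 3 rose in tolerized against LPS cells, or 0 after rescaling, and 7 fell with LPS, or 1 that fell and 1 that rose after rescaling. Pdk2, a relative of Pdk1, fell most with LPS (-3.25 ± 0.20, adjusted p = 0.00035), followed by Brp44, a subunit of the mitochondrial pyruvate carrier (-1.25 ± 0.21, adjusted p = 0.0028). Of 21 citrate cycle genes 1 rose in tolerized against LPS cells, or 0 after rescaling, and 15 fell and 1 rose with LPS, or 6 and 2. The isocitrate dehydrogenase genes Idh1 (-2.86 ± 0.23, adjusted p = 0.00047) and Idh2 (-2.10 ± 0.30, adjusted p = 0.0017) fell most, and Irg1, whose enzyme diverts the cycle to itaconate, rose (4.98 ± 0.71, adjusted p = 0.0017). Of 7 pentose phosphate genes 1 rose in tolerized against LPS cells, or 0 after rescaling, and 4 fell with LPS, or 0. The riser was G6pdx, the first enzyme of that branch (1.00 ± 0.22, adjusted p = 0.017). For KO against WT limma called 0 of the 84 genes of these lists, with 9 higher and 2 lower at an unadjusted p below 0.05. In tolerized against naive cells the counts were 0 higher and 5 lower of the further glycolysis genes (1 and 2 after rescaling), 7 and 3 of the further hypoxia genes (8 and 2), and 0 and 1 of the HIF partners (0 and 1). They were 0 and 2 of the pyruvate entry genes (0 and 1 after rescaling), 1 and 9 of the citrate cycle genes (1 and 6) and 0 and 1 of the pentose phosphate genes (0 and 1).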

How the data were processed

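Poly-A mRNA libraries (TruSeq) were sequenced on a HiSeq2000, per the labels' protocols and the design text. The authors deposited FPKM with an interval for each of 23699 rows a library, per the file headers. Reads were processed with bcl2fastq 1.8.4, TopHat, Cufflinks and build mm9, per the submitters' processing notes. No source used here gives other versions, the annotation or read counts, so depth is unknown.

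Rows not OK in every library (349), rows of symbols at several loci (712) and small RNA rows (803) were left out, leaving 22161. Genotype plus condition were fitted on log2(FPKM + 1) by limma 3.58.1 (R 4.3.3), two-sided, with a mean trend in eBayes, over the 10138 genes that reached 2 FPKM in 2 or more libraries, with 2 residual and 4.2 prior degrees of freedom. On this scale the change of a low gene is understated. Pairs of single libraries were read by size alone, 2-fold or more with 2 FPKM in either. Rescaling divided FPKM by median-of-ratios factors over 10106 genes (0.688 to 1.31). The fit was tested on simulated data. Locus starts in the tables count from 0, as 479 of 487 microRNA rows show against RefSeq lengths, and 1 was added. Promoters and microRNAs are from RefSeq (GRCm38.p6); no coordinates were moved between builds. Every member is named, and up to 2 genes a direction from each other list, matched also by older symbols. Alternatives were other scaling, pseudocounts of 0.1 and 4, other filters, no trend, no genotype term and each library left out. The members and lists were chosen with earlier results of these data known. A few genes and 1 marker list are not reported here.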

Additional observations from a re-analysis of the deposited data

Results flagged for a closer look

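Members were marked where the KO and the WT library moved in opposite directions under the same contrast, with deposited intervals apart in both. These differences on the log2(FPKM + 1) scale were not tested, since each is 1 library pair per genotype. In tolerized against LPS cells this held for Vegfa, at 1.23 in KO and -1.22 in WT.

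In LPS against naive cells it held for 5 members. Slc2a1 differed by -0.12 in KO and 1.12 in WT. P4ha2 differed by -0.64 in KO and 1.60 in WT. Pgk1 differed by -0.46 in KO and 0.37 in WT, and Higd1a by -0.51 in KO and 0.42 in WT. P4ha1 differed by 0.49 in KO and -0.41 in WT. After rescaling none of these 5 was opposite: Slc2a1 was 0.77 in KO and 1.91 in WT, P4ha2 0.02 and 2.28, Pgk1 0.44 and 1.16, Higd1a 0.29 and 1.12, and P4ha1 1.36 and 0.36.

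In tolerized against naive cells it held for 5 members, with smaller sizes. Pdk1 differed by 0.40 in KO and -0.87 in WT, Egln1 by 0.44 in KO and -0.28 in WT, and Hif1a by 0.15 in KO and -0.37 in WT. Hk3 differed by 0.37 in KO and -0.12 in WT, and Pgam1 by -0.13 in KO and 0.077 in WT. After rescaling Hk3 was 0.61 in KO and 0.13 in WT and Pgam1 0.12 and 0.33, so neither was opposite. The other 3 and Vegfa in tolerized against LPS cells were still opposite, with Egln1 at 0.67 in KO and -0.04 in WT.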

How the results depend on the processing

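Fitting without a filter on low values, leaving out the KO LPS library and rescaling changed the counts most. After rescaling, in the limma fit, members higher in tolerized against LPS cells were 7 in place of 16, members higher and lower with LPS against naive 8 and 9 in place of 4 and 14, and members lower in tolerized against naive 2 in place of 4. By size, rescaling gave 11 higher and 5 lower in place of 19 and 2 for tolerized against LPS in KO, 7 higher in place of 12 in WT, 8 higher and 6 lower in place of 1 and 15 for LPS against naive in KO, 8 and 8 in place of 4 and 13 in WT, and 4 higher in place of 2 for KO against WT with LPS. Without a filter on low values 0 members rose and 0 fell in tolerized against LPS and in tolerized against naive cells, and 2 rose and 5 fell with LPS. This limma fit tested 22161 genes, had 16 higher and 2 lower members in tolerized against LPS and 6 and 5 in tolerized against naive cells at an unadjusted p below 0.05, and the cause was not tested. A pseudocount of 0.1 gave 4 and one of 4 gave 1 member lower in tolerized against LPS cells of KO, in place of 2, and one of 4 gave 1 member higher in KO LPS in place of 2.

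With 1 library left out, members higher ranged from 3 to 19 and lower from 0 to 3 in tolerized against LPS cells. They ranged from 2 to 4 higher and 11 to 16 lower for LPS against naive, from 5 to 8 higher and 3 to 4 lower for tolerized against naive, and from 0 to 1 in either direction for KO against WT. Vegfa in tolerized against LPS cells was -1.21 without KO tolerized and 1.22 without WT tolerized. Of the 132 differences of single members, the fit with no filter ended 41 calls. Rescaling ended 16 and added 5, and 16 that were not called changed sign. Leaving out KO LPS ended 22, WT LPS 16, KO tolerized 12, WT naive and WT tolerized 9 each and KO naive 5. The fit with no genotype term ended 11, and pseudocounts, the stricter filter and the fit without trend at most 4 each. No pairing beyond the genotype term of the fit was possible, because each group had 1 library. Depth is unknown, so members near or under 1 FPKM are the least certain. These are Eno1, Ndrg1, Pfkm and Aldoc, and in the group that sets their difference also Ankrd37, Egln3, Pdk1 and Mxi1 (LPS) and Ldhb (tolerized).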
